A study of Mus musculus with 6 samples.

Results

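Described here are 8 T-box transcription factor genes (Tbx1, Tbx2, Tbx3, Tbx4, Tbx5, Tbx15, Tbx18 and Tbx20) in the fibroblasts of colonic adenomas. They were chosen by name and not by their levels, and are 8 of the 49548 genes in the deposited table. The libraries came from Col6a1-cre, Rosa26-mTmG mice on the C57/BL6 background that all underwent the AOM/DSS protocol, in which the carcinogen azoxymethane (AOM), given at 8 to 10 weeks of age, is followed by 3 cycles of 2.5% dextran sodium sulfate (DSS) in the drinking water. In this reporter, Cre activity replaces membrane Tomato with GFP. Cancer-associated fibroblasts (CAFs) were sorted from digested adenomas as cells without CD45, EpCAM, CD31 and Ter119, and GFP+ cells are called Col6a1+ CAFs and Tomato+ cells Col6a1- CAFs. There were 3 libraries of each, each sample was a pool of tumors from 5 to 6 mice, and the study used both sexes. The promoter of Col6a1, a collagen VI gene, drives the Cre, which in the intestine marks mainly PDGFRa-high fibroblasts and perivascular cells, so that Col6a1- CAFs are whatever else the gate let through. No untreated fibroblasts are used here, and the comparison is between the subsets of such tumors.

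T-box proteins bind DNA through a shared domain, the T-box, and many of them act in a dose-dependent manner in the embryo. Tbx2 and Tbx3 are mainly repressors, known for silencing cell cycle inhibitors, whereas Tbx4 and Tbx5 are activators of limb, lung and heart development, and the 4 genes lie as neighbouring pairs. Tbx1, Tbx15, Tbx18 and Tbx20 form another branch with roles in the pharynx, skeleton, mural cells and heart, and in adult mesenchyme T-box genes often persist in patterns set in the embryo.

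Levels are normalized counts, the reads per gene divided by a size factor of the library. Their sums per library lay between 3039152 and 3425249, and from the step between low values 2568312 to 4597809 reads were estimated for 5 libraries. Col6a1+ replicate 1 stood apart, with 14530 genes above 0 against 18770 to 20511 in the others, and results that rest on it are given with and without it. Col6a1 itself had 861, 1287 and 1941 normalized counts in Col6a1+ CAFs and 182, 321 and 102 in Col6a1- CAFs, and these did not overlap (log2 fold change 2.82, adjusted p = 0.00613). Log2 fold changes are Col6a1+ minus Col6a1- CAFs on the log2(normalized count + 1) scale, which understates changes of low genes, and were tested with limma over 26402 genes with Benjamini-Hochberg adjustment. In bulk samples such as these, fewer cells of a type and less RNA per cell cannot be told apart. A level of 0 allows up to 3 counts, for counting error only. A replicate number may mark a pool that gave both subsets, and values with the number as a block are given where they change a call, as for Col6a1 (adjusted p = 0.0983).

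Of the 8 T-box genes, 7 had at least 1 normalized count in some library and were tested, and 5 of them (Tbx1, Tbx2, Tbx3, Tbx4 and Tbx20) had a mean of at least 10. Tbx2 was higher and Tbx1 lower in Col6a1+ CAFs at an adjusted p under 0.05, against 4.62% of all genes called in either direction (2.66% higher and 1.96% lower). For Tbx1, Tbx2 and Tbx20 the libraries of the subsets did not overlap, as was so for 19.5% of all genes (7.91% with the Col6a1+ libraries on top and 11.6% with the Col6a1- libraries on top). The median log2 fold change over the 7 tested genes was 0.14, beside -0.27 over all genes. With the replicate block no T-box gene passed, nor did any of the 26402 genes, of which 4418 (16.7%) had an unadjusted p under 0.05, Tbx1, Tbx2 and Tbx20 among them. These 3 genes also met a looser rule without the block (unadjusted p under 0.05 and a change of more than 1 on the log2 scale), as did 14.7% of all genes. Without Col6a1+ replicate 1 no gene was called, the median over the 7 genes was -0.03, and Tbx2 and Tbx20 (higher) and Tbx1 (lower) still had an unadjusted p under 0.05, as did 19.2% of all genes in that fit. The sum over the 8 genes lay between 1001 and 1221 normalized counts in Col6a1+ CAFs and between 552 and 1428 in Col6a1- CAFs, so that the totals overlapped.

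**Figure D1:**
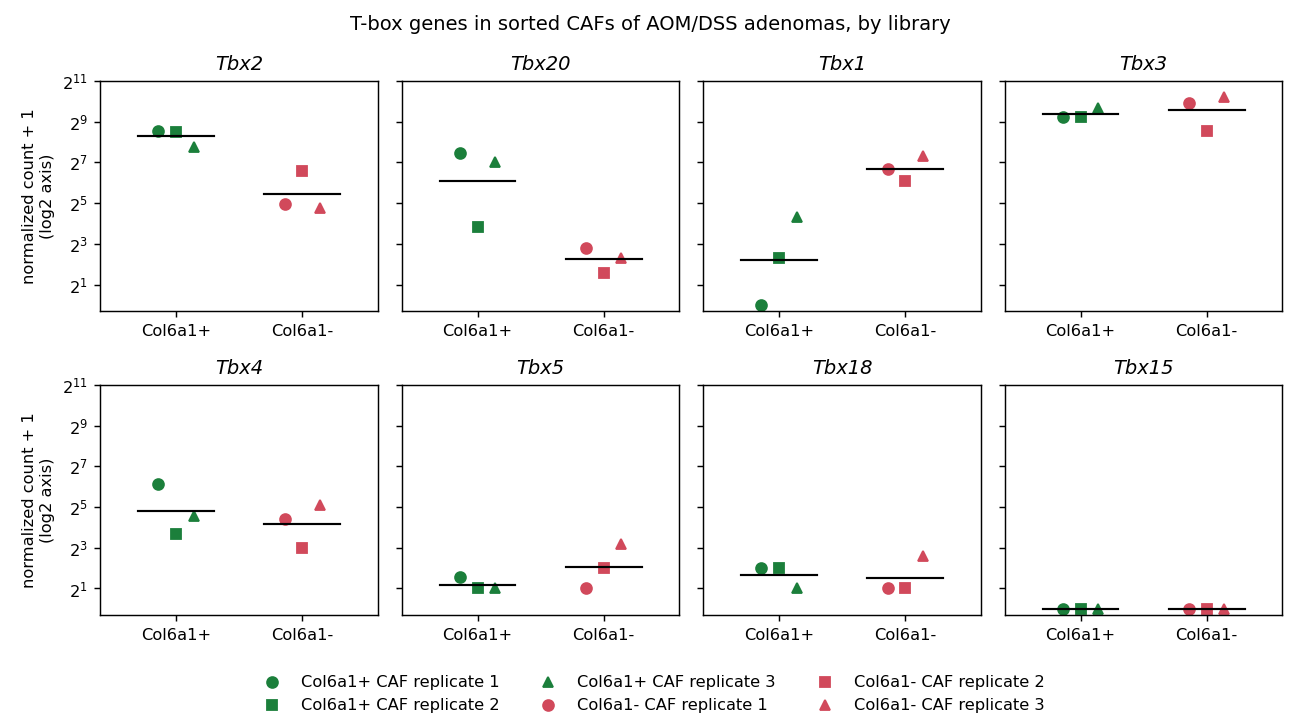
Each panel shows 1 T-box gene, with the normalized count plus 1 on a log2 axis for the 3 Col6a1+ (green) and the 3 Col6a1- (red) CAF libraries, a marker shape for each replicate number, and a line at the mean of the log2 values. Tbx2 and Tbx20 sit higher in every green library, Tbx1 higher in every red library, and Tbx15 is at 0 in all 6.

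The T-box gene called higher in Col6a1+ CAFs was Tbx2, a repressor best known from heart, limb and lung development and from holding back cell cycle inhibitors such as Cdkn2a. Tbx2 (ENSMUSG00000000093, chromosome 11 from 85832551 to 85841948 of mm10, plus strand) had 376, 361 and 217 normalized counts in Col6a1+ replicates 1 to 3 and 30, 94 and 26 in Col6a1- replicates 1 to 3. The lowest Col6a1+ library thus lay above the highest Col6a1- library, which was replicate 2. The means were 318 ± 87.8 and 50 ± 38.2 (SD, n = 3 each). The difference was 2.85 on the log2 scale (standard error 0.51, 95% interval 1.72 to 3.98), or 7.21-fold, with a limma adjusted p of 0.0119. With the replicate block the adjusted p was 0.0725, and it was 0.00468 when the block was fitted to the 13515 genes that averaged 10 or more, where 13.7% of genes passed. This combination was added with the data in view. Without Col6a1+ replicate 1 the log2 fold change was 2.71 (adjusted p = 0.116). Among the fits that leave out 1 library, Tbx2 passed without Col6a1- replicate 2 (log2 fold change 3.42, adjusted p = 0.0493). It passed in none of the other 5, in which the adjusted p lay between 0.116 and 0.206. With any Col6a1+ library or Col6a1- replicate 1 left out, no gene at all was called. Over all genes, 98 were called higher and 166 lower without Col6a1- replicate 2, and 63 and 125 without Col6a1- replicate 3.

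Tbx20, a cardiac T-box factor that both activates and represses, had 175, 13 and 128 normalized counts in Col6a1+ CAFs and 6, 2 and 4 in Col6a1- CAFs (ENSMUSG00000031965, chromosome 9 from 24718138 to 24774303, minus strand). Col6a1+ replicate 2 was far below the other Col6a1+ libraries and still above every Col6a1- library. The log2 fold change was 3.85 (standard error 1.00, 95% interval 1.64 to 6.07), larger than that of Tbx2, but with the wide spread among Col6a1+ libraries (105 ± 83.3 against 4 ± 2, SD, n = 3 each) it did not pass (limma adjusted p = 0.0574). It passed with library sums in place of the size factors (adjusted p = 0.0443, where 5.09% of genes passed), among genes averaging 10 or more (0.0462, where 10.5% of genes passed) and among these with the block (0.0194). Without Col6a1+ replicate 1 the log2 fold change was 3.17 (adjusted p = 0.219), and without Col6a1+ replicate 2 it was 5.0 (adjusted p = 0.10). No gene at all was called in either fit.

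The opposite pattern was that of Tbx1, which is required for the pharyngeal arches and outflow tract and takes part in lymphatic vessel growth. Tbx1 (ENSMUSG00000009097, chromosome 16 from 18581713 to 18586969, minus strand) had 0, 4 and 19 normalized counts in Col6a1+ CAFs and 101, 67 and 161 in Col6a1- CAFs. The lowest Col6a1- library was thus well above the highest Col6a1+ library. The log2 fold change was -4.49 (standard error 1.01, 95% interval -6.72 to -2.25), which is 22.4-fold lower in Col6a1+ CAFs, with means of 7.67 ± 10 and 110 ± 47.6 (SD, n = 3 each) and a limma adjusted p of 0.0320. The adjusted p was 0.111 with the replicate block, 0.0136 with the block among genes averaging 10 or more, and 0.114 when 0.1 was added before the log in place of 1. Tbx1 was listed at 0 in Col6a1+ replicate 1, and without that library the log2 fold change was -3.38 (adjusted p = 0.103). It passed in none of the fits that leave out 1 library (adjusted p between 0.103 and 0.370). With any Col6a1+ library or Col6a1- replicate 1 left out, no gene at all was called.

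The span counted for Tbx1 differs from the GENCODE M21 annotation, which places the gene from 18580979 to 18590671. Thus 734 bases at the 3′ end, where QuantSeq libraries are read, and 3702 bases at the 5′ end lay outside the counted span. Reads from these bases would not be in the values above, and how many there were was not tested. The other 7 T-box genes had the same coordinates in both.

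**Figure D2:**
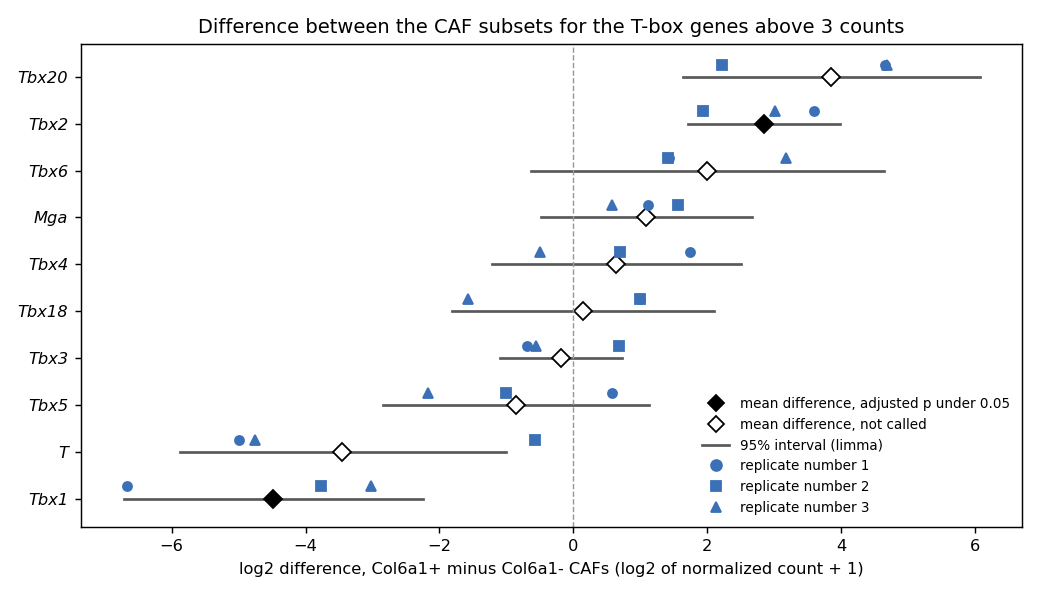
Log2 differences, Col6a1+ minus Col6a1- CAFs, for the 10 T-box genes above 3 normalized counts in some library. Diamonds are the mean differences with 95% intervals from limma (filled where the adjusted p was under 0.05, as for Tbx2 at 2.85 and Tbx1 at -4.49), and blue symbols are differences between libraries with the same replicate number.

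Tbx3, the closest relative of Tbx2 and like it a repressor, did not separate the subsets. Tbx3 (ENSMUSG00000018604, chromosome 5 from 119670669 to 119684724, plus strand) had 596, 607 and 809 normalized counts in Col6a1+ CAFs and 961, 378 and 1191 in Col6a1- CAFs. The Col6a1- libraries held both its lowest and its highest level. The log2 fold change was -0.19 (standard error 0.41, 95% interval -1.10 to 0.72, adjusted p = 0.813), and it was 0.14 without Col6a1- replicate 3. Tbx3 and Tbx2 thus had intervals that do not overlap, although the difference between the genes was not tested.

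Tbx4, a hindlimb and lung mesenchyme factor, lies 44.5 kb past Tbx2 on the same strand (ENSMUSG00000000094, chromosome 11 from 85886422 to 85916097). It had 69, 12 and 23 normalized counts in Col6a1+ CAFs and 20, 7 and 33 in Col6a1- CAFs. The subsets overlapped, and the log2 fold change of 0.64 (standard error 0.84, 95% interval -1.22 to 2.51, adjusted p = 0.668) was -0.02 without Col6a1+ replicate 1. Tbx5, the forelimb and heart paralog of Tbx4 that lies 148 kb past Tbx3 (ENSMUSG00000018263, chromosome 5 from 119832668 to 119885219), had 2, 1 and 1 normalized counts in Col6a1+ CAFs and 1, 3 and 8 in Col6a1- CAFs. Tbx5 was thus above 3 counts in 1 library, Col6a1- replicate 3.

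Tbx18, known for marking pericytes and vascular smooth muscle cells in many organs, was near the limit as well (ENSMUSG00000032419, chromosome 9 from 87702800 to 87731260). It had 3, 3 and 1 normalized counts in Col6a1+ CAFs and 1, 1 and 5 in Col6a1- CAFs, and its log2 fold change was 0.14 (standard error 0.88, 95% interval -1.82 to 2.10, adjusted p = 0.948). For Tbx5 the log2 fold change was -0.86 (standard error 0.90, 95% interval -2.85 to 1.13, adjusted p = 0.642). The Tbx5 interval covers decreases of more than 2 on the log2 scale in Col6a1+ CAFs, and the Tbx18 interval covers increases of more than 2. Such differences in these directions were thus not excluded with these libraries. Tbx15, a factor of skeletal and dermal mesenchyme (ENSMUSG00000027868, chromosome 3 from 99240381 to 99354259), was listed at 0 in all 6 libraries, which allows up to 3 counts in each.

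The promoters of Tbx20 and Tbx1 are shown because these genes had non-overlapping subsets in opposite directions. RefSeq windows of GRCm38.p6 with the 250 bases before a transcript start were matched for 4 of the 8 genes (Tbx1 with 2 starts, Tbx4, Tbx18 and Tbx20), and Tbx2, Tbx3, Tbx5 and Tbx15 were not matched. Each is written 5′ to 3′ on the strand of the gene, and capitals mark CG dinucleotides, the bases that DNA methylation acts on. The Tbx20 window is chr9:24774304-24774553, and those of Tbx1 are chr16:18588900-18589149 and chr16:18590672-18590921, all on the minus strand.
Tbx20: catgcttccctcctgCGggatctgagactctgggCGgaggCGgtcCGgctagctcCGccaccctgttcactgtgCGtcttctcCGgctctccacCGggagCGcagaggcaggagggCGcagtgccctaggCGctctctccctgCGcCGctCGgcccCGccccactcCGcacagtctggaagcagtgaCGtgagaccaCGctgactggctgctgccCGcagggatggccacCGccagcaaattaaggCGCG
Tbx1, inner start: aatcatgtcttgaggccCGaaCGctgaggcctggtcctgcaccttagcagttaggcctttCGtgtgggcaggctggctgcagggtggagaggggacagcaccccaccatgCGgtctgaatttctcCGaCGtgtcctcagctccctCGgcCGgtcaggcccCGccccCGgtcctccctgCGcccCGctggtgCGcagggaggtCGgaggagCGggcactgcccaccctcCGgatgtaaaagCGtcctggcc
Tbx1, outer start: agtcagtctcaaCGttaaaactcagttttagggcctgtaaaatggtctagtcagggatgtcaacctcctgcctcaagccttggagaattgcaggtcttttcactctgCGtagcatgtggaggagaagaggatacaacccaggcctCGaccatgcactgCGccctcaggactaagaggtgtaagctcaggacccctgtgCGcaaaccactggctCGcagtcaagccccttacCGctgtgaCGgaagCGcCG
The Tbx20 window held 22 CG dinucleotides, at the 86.7th percentile of the 32851 windows, and the Tbx1 windows held 17 (inner start) and 10 (outer start), beside a median of 6. The windows of Tbx18 and Tbx4 held 15 and 6. Both Tbx1 starts lie outside the span counted for that gene. The core of the T-box binding site, GGTGTGA, searched on both strands, was in 0 of the 5 windows and in 3.33% of all windows, which says only that these letters are not in these bases.

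Within a subset, the order of the libraries was not the same for all 5 T-box genes with a mean of at least 10. Col6a1- replicate 2 was the lowest library of its subset and of all 6 for Tbx3, Tbx4 and Tbx20, the lowest Col6a1- library for Tbx1, and the highest Col6a1- library for Tbx2. Col6a1+ replicate 1 had the highest level of Tbx2, Tbx4 and Tbx20 among all 6 libraries and the lowest of Tbx1. The differences between same-numbered libraries kept their sign for Tbx2 (3.60, 1.93 and 3.01 on the log2 scale), Tbx20 (4.65, 2.22 and 4.69) and Tbx1 (-6.67, -3.77 and -3.02), and changed it for Tbx3 (-0.69, 0.68 and -0.56) and Tbx4 (1.74, 0.70 and -0.50).

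The noncoding RNAs beside Tbx3 had mean differences of opposite sign, and neither passed the test. Tbx3os1, an antisense gene that overlaps the first 697 bases of Tbx3, had 128, 65 and 80 normalized counts in Col6a1+ CAFs and 28, 34 and 35 in Col6a1- CAFs. All Col6a1+ libraries were above all Col6a1- libraries, by 1.41 on average on the log2 scale (standard error 0.46, adjusted p = 0.129). Tbx3os2, a lincRNA gene that ends 370 bases past Tbx3 on the other strand, had 87, 2 and 13 in Col6a1+ CAFs and 187, 32 and 187 in Col6a1- CAFs (log2 fold change -2.77, standard error 1.12, adjusted p = 0.240). The subsets overlapped for Tbx3os2. Whether the counting used the strand is not given in the sources used here, so reads of Tbx3 and Tbx3os1 in their shared bases cannot be told apart.

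Of the other 9 T-box genes of the table, 8 were tested and 0 passed with limma, while 1 had an unadjusted p under 0.05. The mesoderm gene T, which encodes Brachyury, had 0, 3 and 0 normalized counts in Col6a1+ CAFs and 31, 5 and 26 in Col6a1- CAFs. The subsets did not overlap, as for Tbx1, and the log2 fold change of -3.45 (standard error 1.10) had an adjusted p of 0.119, or 0.0274 with limma-voom in place of limma on log2 values. Tbx6, a paraxial mesoderm factor, had 34, 7 and 8 in Col6a1+ CAFs and 12, 2 and 0 in Col6a1- CAFs (log2 fold change 2.00, standard error 1.19, adjusted p = 0.455). For Mga, which carries a T-box beside its Max-binding domain, the counts were 36, 129 and 141 against 16, 43 and 94 (log2 fold change 1.09, standard error 0.71, adjusted p = 0.519). Tbx10, Tbx19, Tbx21, Tbx22, Eomes and Tbr1 had at most 3 normalized counts in every library.

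**Figure D3:**
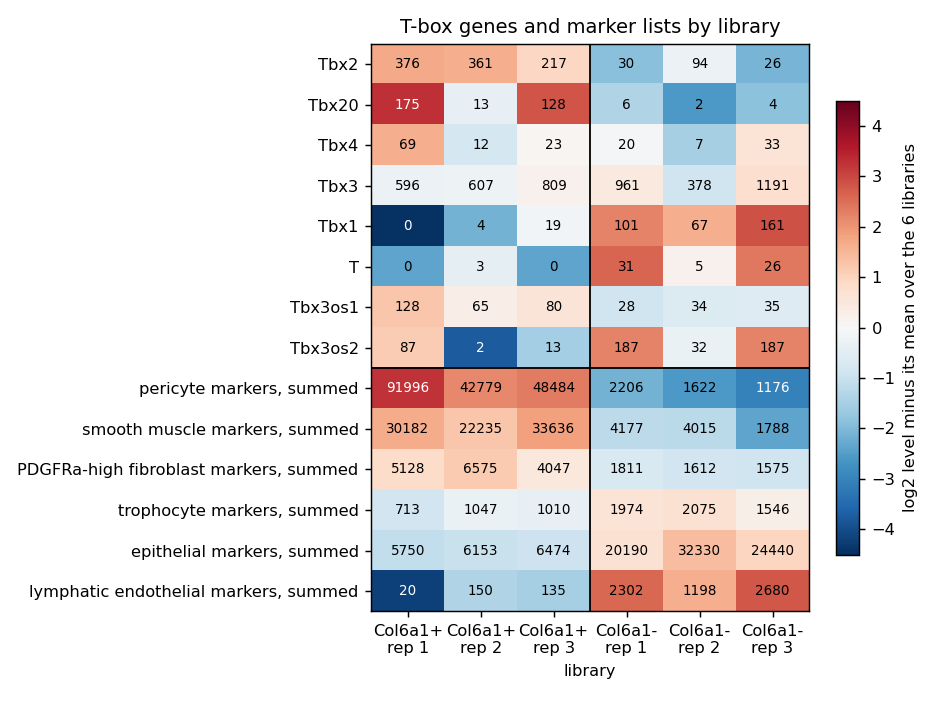
Heat map of T-box genes, the RNAs beside Tbx3 and summed marker lists (rows) by library (columns). Numbers are normalized counts, and the colour is the log2 level minus its mean over the 6 libraries. Tbx2 and Tbx20 share their direction with the pericyte markers (42779 to 91996 summed in Col6a1+ CAFs against 1176 to 2206). Tbx1 and T share theirs with the epithelial markers and with the lymphatic endothelial sum. That lymphatic sum came mostly from Prox1, with Lyve1 and Flt4 low in all libraries and Ccl21a at 6 to 102 in Col6a1- CAFs.

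Markers of several cell types moved with the subsets, and their part in the T-box values was not tested. Beside the higher levels of Tbx2 and Tbx20, all 10 pericyte markers were called higher in Col6a1+ CAFs (42779 to 91996 summed normalized counts against 1176 to 2206), as were 6 of 8 smooth muscle markers (22235 to 33636 against 1788 to 4177) and 5 of 8 markers of PDGFRa-high fibroblasts (4047 to 6575 against 1575 to 1811). Tbx18, which is among the marker genes of mural cells elsewhere, stayed at 1 to 3 counts beside them. The pan-fibroblast list was higher in Col6a1+ CAFs for 5 of 8 genes, and its sum was 8708 to 15920 in Col6a1- CAFs against 41971 to 46808. Within Col6a1+ CAFs the pericyte sum was highest in replicate 1, the library with the most Tbx2 and Tbx20, where Mcam made up 38662 of it (5341 and 6072 in replicates 2 and 3). Rgs5, also highest there (42173, 29648 and 31282), made up most of the rest. The markers did not share 1 order, as Higd1b (33, 140 and 144) and Des (865, 1108 and 1372) were lowest in replicate 1. The pericyte sum was lowest in replicate 2, which had the least Tbx20 but not the least Tbx2 (361, against 217 in replicate 3).

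Beside the lower Tbx1, 7 of 10 epithelial markers were called lower in Col6a1+ CAFs, with sums of 5750 to 6474 against 20190 to 32330, although EpCAM+ cells were gated out. Among the Col6a1- libraries this sum was highest in replicate 2, the library with the least Tbx1. Of 4 lymphatic endothelial markers 1 was called lower, and the sum of 20 to 150 against 1198 to 2680 came mostly from Prox1 (15, 139 and 93 against 2154, 1100 and 2644), with Lyve1 at 0 to 27 and Flt4 at 0 to 27 in all libraries. The remaining marker, Ccl21a, had 5, 8 and 15 against 102, 53 and 6. Its lowest Col6a1- library was replicate 3, which had the most Prox1 and Tbx1. Col6a1- replicate 2 had the least of both Prox1 and Tbx1 in its subset. Matches in the order of 3 libraries, for these and other genes, were not tested and cannot tell cell types apart. Mesothelial markers were at 1 to 16 against 9 to 37 in sum, with Upk3b, Wt1 and Lrrn4 at 3 or fewer in every library. Most of the Col6a1- sum came from Msln, which had 0, 2 and 1 normalized counts in Col6a1+ CAFs and 33, 5 and 26 in Col6a1- CAFs, with no overlap, an adjusted p of 0.127 and its lowest Col6a1- level in replicate 2, as for Tbx1 and T. In addition, 2 of 8 trophocyte markers were called lower in Col6a1+ CAFs (713 to 1047 against 1546 to 2075). Of the immune list 1 gene was called, lower in Col6a1+ CAFs. Of the endothelial and interstitial cell of Cajal lists 1 gene each was called, both higher, although 7 of the 8 endothelial markers had a log2 fold change below 0. No gene of the T and NK cell, glial, erythroid and proliferation lists was called. With the replicate block no marker was called.

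Genes around the T-box factors were read from lists of their partners, their known targets and the signals upstream of them. Of 17 partners 15 were tested, 2 were called higher and 0 lower, with a median log2 fold change of -0.08. Mef2c, a muscle and vascular transcription factor, had 281, 255 and 280 normalized counts in Col6a1+ CAFs and 24, 28 and 33 in Col6a1- CAFs (log2 fold change 3.23, standard error 0.37, adjusted p = 0.00158). Nkx2-3, the homeobox factor of gut mesenchyme and a relative of the cardiac T-box partner Nkx2-5, had 1340, 1043 and 715 against 319, 235 and 121 (log2 fold change 2.26, standard error 0.40, adjusted p = 0.0109). In both genes the subsets stood well apart. Nkx2-5 and Hand1 were listed at 0 in all libraries, and Gata4 had at most 3 counts.

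Of 15 targets 14 were tested, with a median log2 fold change of -0.65, and 1 was called higher and 3 lower. Those called lower were Cdkn2a, Cdkn2b and Cdh1, which Tbx2 or Tbx3 are known to repress. The cell cycle inhibitor genes Cdkn2a and Cdkn2b were lower in Col6a1+ CAFs. Cdkn2a had 63, 7 and 13 normalized counts in Col6a1+ CAFs and 301, 179 and 348 in Col6a1- CAFs (log2 fold change -3.79, standard error 0.70, adjusted p = 0.0129), and Cdkn2b had 9, 26 and 19 against 113, 60 and 138 (-2.49, standard error 0.58, adjusted p = 0.0361). Cdh1, which encodes E-cadherin and is also in the epithelial list, had 2999, 2344 and 2580 against 10493, 15452 and 11963 (log2 fold change -2.25, standard error 0.28, adjusted p = 0.00212). The other inhibitor in the list, Cdkn1a, had overlapping subsets (224, 433 and 461 against 381, 486 and 1259, adjusted p = 0.452). The Tbx1 target Flt4, which encodes a lymphatic growth factor receptor, was listed at 0 in every Col6a1+ library and had 24, 27 and 4 counts in Col6a1- CAFs (adjusted p = 0.0531). It was among 5 targets with all Col6a1- libraries above all Col6a1+ libraries, as for 11.6% of all genes. Another 2 targets had all Col6a1+ libraries on top, as for 7.91% of all genes, so the targets went in both directions.

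Of 11 genes for upstream signals, all tested, 1 was called higher and 1 lower, and the median log2 fold change was 0.67. Ptch1, the Hedgehog receptor and itself a Hedgehog target, had 327, 407 and 288 normalized counts in Col6a1+ CAFs and 138, 114 and 84 in Col6a1- CAFs (log2 fold change 1.61, standard error 0.33, adjusted p = 0.0227). Foxa2, a forkhead factor that acts on Tbx1 in the embryo and is also made in gut epithelium, had 20, 18 and 13 against 364, 112 and 326 (log2 fold change -3.75, standard error 0.53, adjusted p = 0.00358). Its lowest Col6a1- library was replicate 2, as for Tbx1. The BMP ligands that induce Tbx2 and Tbx3 in the embryo, Bmp2 and Bmp4, did not pass, although their libraries did not overlap. Bmp4 had 1352, 1338 and 1166 against 671, 545 and 192 (adjusted p = 0.0591), and Bmp2 had 708, 792 and 788 against 484, 341 and 484 (adjusted p = 0.143). With the replicate block none of the partner, target or upstream genes passed, and the adjusted p of the called genes was between 0.0612 and 0.142.

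Across the 6 libraries, the genes with the pattern most like each T-box gene were named by Pearson's r of the log2 values among 13514 genes with a mean of at least 10, as a description without a test. The 6 points fall into the 2 subsets and share library and scaling, so that a high r is common for a gene that separates them. For Tbx1 these were Tox3 (0.9958), Atg9b (0.9945) and Nebl (0.9920), and 234 genes had an r over 0.95. For Tbx2 they were Phldb1 (0.9974), Crip1 (0.9966) and Chpf (0.9963), with 175 genes over 0.95. For Tbx20 they were L3mbtl3 (0.9978), Cyp4f16 (0.9970) and Ppm1a (0.9860), with 80. Fewer genes followed the members that did not separate the subsets, with 6 over 0.95 for Tbx3 (Senp7 at 0.9916, Hexim1 at 0.9834 and Zfp503 at 0.9758 were the highest) and 18 for Tbx4 (Bcor at 0.9946, Rmnd5a at 0.9940 and Cisd2 at 0.9900). By Spearman's rho, 94 genes shared the exact order of the libraries with Tbx1, 89 with Tbx2, 72 with Tbx20, 12 with Tbx4 and 5 with Tbx3.

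**Figure D4:**
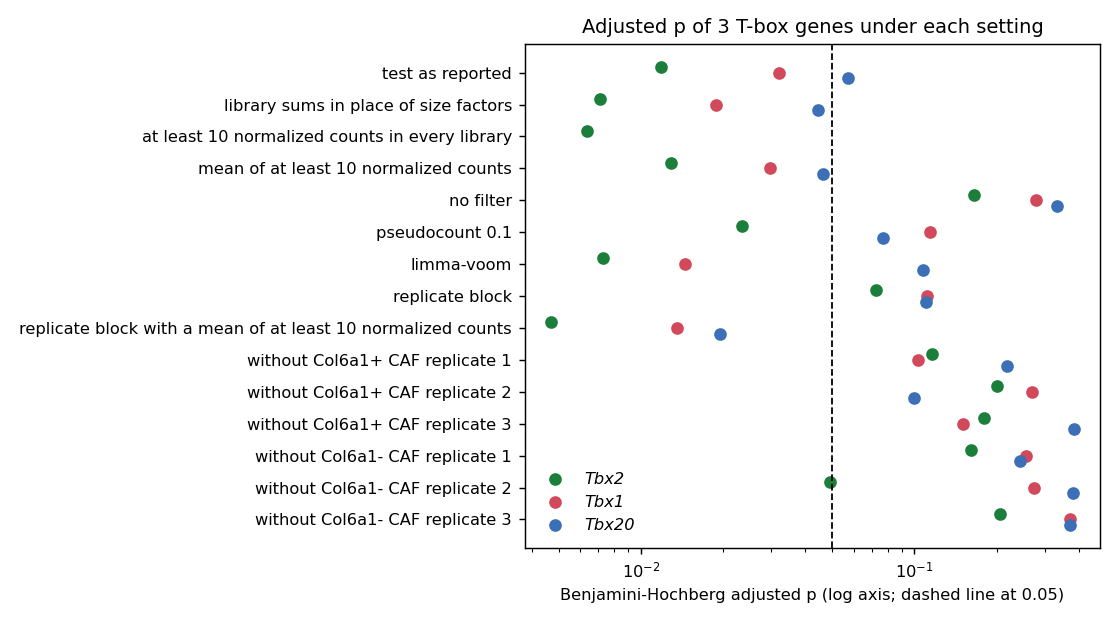
Adjusted p (log axis, dashed line at 0.05) of Tbx2, Tbx1 and Tbx20 under each setting of the test. Tbx2 spans 0.00468 to 0.206, Tbx1 0.0136 to 0.370 and Tbx20 0.0194 to 0.385. The fits that leave out 1 library lie to the right of the line except for Tbx2 without Col6a1- replicate 2. With any Col6a1+ library or Col6a1- replicate 1 left out, no gene at all was called.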

How the data were processed

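Groups and replicate numbers follow the sample labels. The authors mapped the QuantSeq 3′ reads to mm10 with TopHat2 and Bowtie2, counted them per gene with GenomicRanges and normalized them with DESeq through metaseqR, and deposited log2 values of the normalized count plus 1, which were used as deposited. Whether molecular identifiers were used is not given in the sources used here. A further 6 columns of per-sample values and the columns of the authors' own comparison (p-values, false discovery rates and fold changes) were not used. Library sums lay between 3039152 and 3425249 normalized counts.

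The 2 groups were compared with limma 3.58.1 in R 4.3.3 (two-sided, moderated variances with a trend on the mean level, 4 residual and 6.48 prior degrees of freedom) for the 26402 genes whose normalized counts summed to 1 or more. Benjamini-Hochberg adjustment ran over all of them, and genes were called at an adjusted p under 0.05. The script was tested on simulated data. Deviations from the group means over 13515 genes had correlations of 0.125 to 0.245 between libraries with the same replicate number. Between those with different numbers the correlations were -0.245 to 0.15, so that the ranges overlapped. The replicate number was used as a block in an alternative fit and not in the test as reported. The study counts as many pooled samples as each subset had libraries. The labels do not say that a number marks a shared pool.

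The alternatives were library sums, other filters, a pseudocount of 0.1, limma-voom, a term for the replicate number (the replicate block), fits without each library and unadjusted p-values. The block among genes averaging 10 or more was added after seeing the data. The members, lists, tests and alternatives were chosen with earlier results of these data known. The genes named are the 8 members, the other T-box genes above 3 normalized counts in any library, the called genes of the partner, target and upstream lists, genes with a mean of at least 10 that overlap a member or start within 10 kb of it, and the 3 genes most like each member. Flt4, Cdkn1a, Bmp2, Bmp4, the list genes at 0 or at most 3 counts and the marker genes named fall outside this rule and were chosen after their values were seen. Some genes of the partner and target lists, which count in the list sizes and medians, are not reported here. Sequences are from RefSeq (GRCm38.p6), and plots were drawn with Matplotlib 3.10.9.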

Additional observations from a re-analysis of the deposited data

How the results depend on the processing

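The count of T-box genes called higher in Col6a1+ CAFs was 1 in the test as reported, 2 with library sums, with a mean of at least 10, with the replicate block over that mean and at unadjusted p-values with a change of more than 1 on the log2 scale, and 0 with no filter and with the replicate block. It was 0 to 1 when a library was left out. The count called lower was 1, and 0 with at least 10 counts in every library, where Tbx1 was not in the test, with no filter, with a pseudocount of 0.1, with the replicate block and when any library was left out. Over all genes 703 were higher and 517 lower, 21 and 7 with no filter, 0 and 0 with the replicate block, 1607 and 2273 at unadjusted p-values, and 0 to 98 and 0 to 166 when a library was left out. The number lower was 336 with a pseudocount of 0.1, 1006 with limma-voom and 871 with the block over a mean of at least 10. The block left 0 of the called partner, target and upstream genes. With a library left out, the log2 fold change of Tbx3 lay between -0.69 and 0.14, that of Tbx4 between -0.02 and 1.2 and that of Tbx18 between -0.13 and 0.67, and the sign turned without Col6a1- replicate 3 for Tbx3, without Col6a1+ replicate 1 for Tbx4, and without either replicate 1 or either replicate 2 for Tbx18. Tbx1, Tbx2 and Tbx20 kept their direction under every alternative in which they were tested. The causes were not tested. Tbx5 had at most 8 and Tbx18 at most 5 normalized counts in any library, with 3 libraries a subset, and no setting varied the depth.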
